A study of Mus musculus with 2 samples.

Results

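Pigment epithelium specification and melanin synthesis were described in single cells of the mouse eye region through 9 genes, *Mitf*, *Otx2*, *Pmel*, *Dct*, *Trpm1*, *Tyr*, *Tyrp1*, *Slc45a2* and *Slc24a5*. They were chosen by name, and all 9 were found among the 27998 gene rows of both libraries. The libraries hold cells of the ocular area of C57BL/6J embryos at the 26 somite stage (E9.25), 1 from a wild type embryo and 1 from a *Mab21l1*-null embryo, which carries a null allele in all its cells. Each library was made from the pair of optic areas of 1 embryo with the 10x Chromium system, which reads captured transcripts near their 3′ end and counts each molecule once by its unique molecular identifier (UMI). With 1 embryo per genotype no test was possible, and genotype, embryo, dissection and library cannot be told apart. At this stage the optic vesicle lies under the surface ectoderm, and its wall is being divided into the future neural retina, pigment epithelium and stalk.

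The retinal pigment epithelium is the sheet of pigmented cells behind the neural retina. Its fate depends on the transcription factors MITF and OTX2, which activate genes of melanin synthesis. Melanin is made in melanosomes by tyrosinase and the related enzymes TYRP1 and DCT, is laid down on fibrils of PMEL, and depends on melanosomal transporters such as SLC45A2 and SLC24A5. Melanocytes of the neural crest use many of the same genes, but they arise from another lineage that is marked by *Sox10*.

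The enzymes of the tyrosinase family are shown first by their promoters, because they share an element known to be bound by MITF and yet were detected in very different numbers of cells. Windows from 250 bases before to 50 bases after a start site came from RefSeq annotation of GRCm38.p6 and were found for 7 of the 9 genes, all but *Pmel* and *Slc45a2*. The windows lie at chr14:118052197-118052496 on the minus strand for *Dct*, chr4:80833963-80834262 on the plus strand for *Tyrp1* and chr7:87493463-87493762 on the minus strand for *Tyr*. Capitals mark the 10 letters GTCATGTGCT, the longest run common to the 3 windows on either strand, which are part of the element known as the M box.
Dct: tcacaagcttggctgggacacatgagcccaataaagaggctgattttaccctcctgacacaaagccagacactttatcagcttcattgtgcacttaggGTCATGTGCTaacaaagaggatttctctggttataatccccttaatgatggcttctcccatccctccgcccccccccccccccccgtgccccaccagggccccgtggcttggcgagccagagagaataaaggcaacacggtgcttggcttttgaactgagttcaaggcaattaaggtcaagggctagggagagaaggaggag
Tyrp1: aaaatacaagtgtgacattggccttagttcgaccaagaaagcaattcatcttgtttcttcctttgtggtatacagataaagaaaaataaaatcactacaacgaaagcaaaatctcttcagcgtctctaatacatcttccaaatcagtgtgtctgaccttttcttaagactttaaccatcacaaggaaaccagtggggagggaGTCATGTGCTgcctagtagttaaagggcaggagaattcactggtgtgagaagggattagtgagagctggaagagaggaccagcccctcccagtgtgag
Tyr: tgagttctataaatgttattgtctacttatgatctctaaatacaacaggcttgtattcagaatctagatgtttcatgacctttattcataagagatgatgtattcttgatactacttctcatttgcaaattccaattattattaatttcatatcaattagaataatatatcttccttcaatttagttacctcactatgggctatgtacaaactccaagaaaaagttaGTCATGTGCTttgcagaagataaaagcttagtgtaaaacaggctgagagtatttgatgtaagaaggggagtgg
The element started 152 bases before the start site of *Dct*, 48 before that of *Tyrp1* and 23 before that of *Tyr*. Searched on both strands, it was in 61 of 32851 windows of the same length in the whole table, or 0.186%. The first of 2 windows of *Trpm1*, at chr7:64153585-64153884 on the plus strand, held the 7 inner letters TCATGTG, capitals below, 142 bases before the start site.
Trpm1: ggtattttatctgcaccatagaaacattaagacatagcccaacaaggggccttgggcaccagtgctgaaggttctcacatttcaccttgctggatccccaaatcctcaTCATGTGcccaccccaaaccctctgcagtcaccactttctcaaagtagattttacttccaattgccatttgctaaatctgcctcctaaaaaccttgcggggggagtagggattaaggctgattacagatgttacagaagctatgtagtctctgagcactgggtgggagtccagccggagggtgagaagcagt
The 7 letters also stood in the window of *Slc24a5*, on the other strand and 13 bases before the start site, and in 3.77% of all windows, and these matches include every match of the 10 letters. *Dct* held the 7 letters at a further place, on the other strand with the leftmost base 232 bases before the start site. None of the 3 windows of *Mitf* and none of the 4 windows of *Otx2* held them. These matches describe the letters in the windows and no binding was measured.

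In the WT-labelled library 1680 of 1745 barcodes passed the filters, from a total of 43636657 UMIs, and in the KO-labelled library 2404 of 2458 barcodes passed, from 53148253 UMIs, with a median of 21037 and 18135 UMIs per kept cell. RNA of *Mab21l1*, the targeted gene, was counted in both libraries and at a higher level in the KO-labelled library, at 20.3 [18.9, 21.7] and 32.5 [31.0, 34.1] UMIs per 1000000 UMIs (CPM). In optic vesicle-like cells it was also higher in the KO-labelled library, at 34.85 [32.0, 37.9] and 61.5 [58.2, 64.9] CPM. In ectoderm-like cells the difference ran the other way, with 86.8 [70.6, 105.7] and 37.8 [26.5, 52.4] CPM of *Mab21l1*. The lens placode genes *Cbln2* and *Cngb3*, which the study picked from these libraries, were there on 51 and 0 UMIs and on 40 and 4 UMIs. By qPCR of whole-eye samples, the study also reported lower RNA of both genes in *Mab21l1*-null embryos. Where a pair of values is given without names, the WT-labelled library comes first. Brackets after a level, a share or a ratio give its exact 95% interval (Poisson, Clopper-Pearson and binomial split of 2 sums), which covers counting error only. Levels per UMI count molecules near the 3′ end and do not scale with gene length, but how well each gene is captured may differ. The libraries shared 15 barcode sequences apart from the library suffix, all of them kept, of which 1 was optic vesicle-like in both.

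Cells of both libraries were clustered together without the 9 genes and without the other melanosome genes, so that no member shaped the classes directly, although genes that vary with them did. Clusters rich in *Rax*, *Lhx2* and *Six6* held 467 optic vesicle-like cells in the WT-labelled library and 738 in the KO-labelled library. Among their subclusters, 1 raised 5 of the 10 pigment epithelium markers, *Wnt2b*, *Trpm3*, *Rlbp1*, *Kcnj13* and *Gas1*. Subcluster 3 raised 3 of the 10, *Wnt2b*, *Trpm3* and *Rlbp1*, the fewest with which a name was given. *Sfrp5*, *Ttr*, *Rdh5*, *Rgr* and *Bmp7* were raised in neither. From other lists, subcluster 1 raised the stalk marker *Aldh1a3* and subcluster 3 the neural ectoderm marker *Emx2*. Both subclusters are called pigment epithelium-like, with 166 and 226 cells. That is 35.5% [31.2, 40.1] and 30.6% [27.3, 34.1] of the optic vesicle-like cells. Different subclusters held most of this class in each library: subcluster 1 held 148 of the 166 cells in the WT-labelled library, and subcluster 3 held 139 of the 226 cells in the KO-labelled library. Subcluster 0 raised *Six6*, *Fgf15* and *Sox2*, among other markers, and is called neural retina-like, with 105 and 253 cells. Subclusters 2, 4 and 5, led by *Wnt7b* and *Irs4*, by *Aldh1a1* and *Tbx5*, and by *Dlk1* and *Wnt7b*, are given by number. So are clusters 5, 6, 7, 12, 13 and 15, which were not named optic vesicle-like. Among these, cluster 5 raised the optic vesicle markers *Six6* and *Six3*, cluster 6 *Rax* and cluster 7 *Lhx2* and *Vax2*, so cells of the optic vesicle may be among them. Subclusters 2 and 5 raised 7 and 5 neural ectoderm markers, cluster 7 raised 6 of these, and cluster 12 raised all 9 mesenchyme markers. Clusters 7 and 12 were kept apart from the neural ectoderm-like and mesenchyme-like cells after the data were seen, and held 8.69% and 4.17% of the kept cells in the WT-labelled library and 2.08% and 0.541% in the KO-labelled library.

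*Otx2*, a homeodomain factor of the forebrain and eye, was the most widely detected of the 9 genes in optic vesicle-like cells. It reached 251 CPM [238, 266] in pigment epithelium-like cells of the WT-labelled library and 252 [240.0, 264] in the KO-labelled library, with a median of 6 UMIs per cell in both. Levels in neural retina-like cells were 86.4 [75.9, 97.9] and 99.6 [91.9, 108], so that the pigment epithelium-like cells held 2.91-fold [2.54, 3.35] and 2.53-fold [2.31, 2.78] as much. Subclusters 2, 4 and 5 lay between 89.4 and 138 CPM, with intervals that overlap in part. In the clusters not named optic vesicle-like, *Otx2* was at 77.7 and 55.1 in cluster 7, 66.3 and 59.4 in cluster 6 and 53.1 and 72.8 in cluster 13. Neural ectoderm-like cells had 37.4 and 37.5 CPM, and mesenchyme-like cells had 1.72 and 2.99 CPM.

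*Mitf* encodes the basic helix-loop-helix factor that controls pigment cell genes. Its level was 135 CPM [125, 146] in pigment epithelium-like cells of the WT-labelled library and 125 [117, 134] in the KO-labelled library. Subcluster 5 came next, at 68.0 [58.9, 78.1] and 77.3 [62.4, 94.6], below the pigment epithelium-like cells in both libraries. Neural retina-like cells had the lowest level in the optic vesicle, 22.8 [17.6, 29.1] and 19.6 [16.3, 23.4], that is 5.91-fold [4.57, 7.74] and 6.37-fold [5.27, 7.76] less than the pigment epithelium-like cells. *Mitf* RNA was also counted in clusters not named optic vesicle-like, with 53.1 and 61.5 CPM in cluster 7 and 43.6 and 42.3 in cluster 6. Neural ectoderm-like cells had 38.3 and 46.4, and cluster 5, led by *Igfbpl1* and *Cp*, had 43.0 and 41.0. These neighbours in the order do not differ beyond their counting intervals, whereas mesenchyme-like cells held 1.61 and 2.26 CPM.

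*Trpm1*, a cation channel first known from melanocytes, was the most abundant of the 9 per UMI. It was counted at 467 CPM [448, 486] in pigment epithelium-like cells of the WT-labelled library and 583 [564, 601] in the KO-labelled library, with a median of 11 and 15 UMIs per cell. The other classes of the optic vesicle ranged from 43.5 and 30.5 in neural retina-like cells to 163 and 305.0 in subcluster 5, and the shallow cluster 6, in which *Trpm1* was itself among the leading genes, had 197 and 201. In the mesenchyme-like, endothelium-like and erythrocyte-like cells together it had 3.24 and 5.24 CPM.

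*Pmel* and *Dct* had the largest ratios of pigment epithelium-like to neural retina-like cells among the members counted in both. *Pmel*, which encodes the protein of melanosome fibrils, was at 179 CPM [167, 191] and 134 [125, 143] in pigment epithelium-like cells and at 2.46 [0.988, 5.06] and 1.76 [0.877, 3.14] in neural retina-like cells. *Dct*, which encodes dopachrome tautomerase, was at 139 [129, 150.2] and 127 [119, 136] against 2.46 [0.988, 5.06] and 1.28 [0.551, 2.52]. The ratios to neural retina-like cells were 72.8-fold [35.2, 182] and 76.3-fold [42.4, 153] for *Pmel* and 56.7-fold [27.4, 142] and 99.4-fold [50.2, 231] for *Dct*. Single cells varied widely in *Pmel*, from 0 to 42 UMIs with a median of 2.5 in the WT-labelled library and from 0 to 39 with a median of 2 in the KO-labelled library. Subcluster 1 held more *Pmel* than subcluster 3 in both libraries, with 195 against 54.9 CPM and 215 against 74.0 CPM.

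The other melanin genes were rare. *Tyrp1*, whose product acts late in the synthesis of brown-black melanin, had 32 UMIs in 26 of 166 pigment epithelium-like cells of the WT-labelled library and 31 UMIs in 26 of 226 in the KO-labelled library, or 6.55 CPM [4.48, 9.25] and 4.69 [3.19, 6.66]. No *Tyrp1* UMI was counted in neural retina-like cells, which puts the level in pigment epithelium-like cells at least 6.22-fold and 9.79-fold higher when 3 UMIs per library are taken as the floor. *Slc45a2*, a melanosomal transporter, had 5 and 6 UMIs there, or 1.02 [0.333, 2.39] and 0.908 [0.333, 1.98] CPM. *Tyr*, the rate-limiting enzyme of melanin synthesis, had 1 and 3 UMIs, each in a cell of its own, and none in any other class of kept cells. After thinning, *Tyr* was in 0 of 161 pigment epithelium-like cells of the WT-labelled library, which allows a share of up to 1.86%, taking 3 cells as the floor for a count of 0 here and below.

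**Figure D1:**
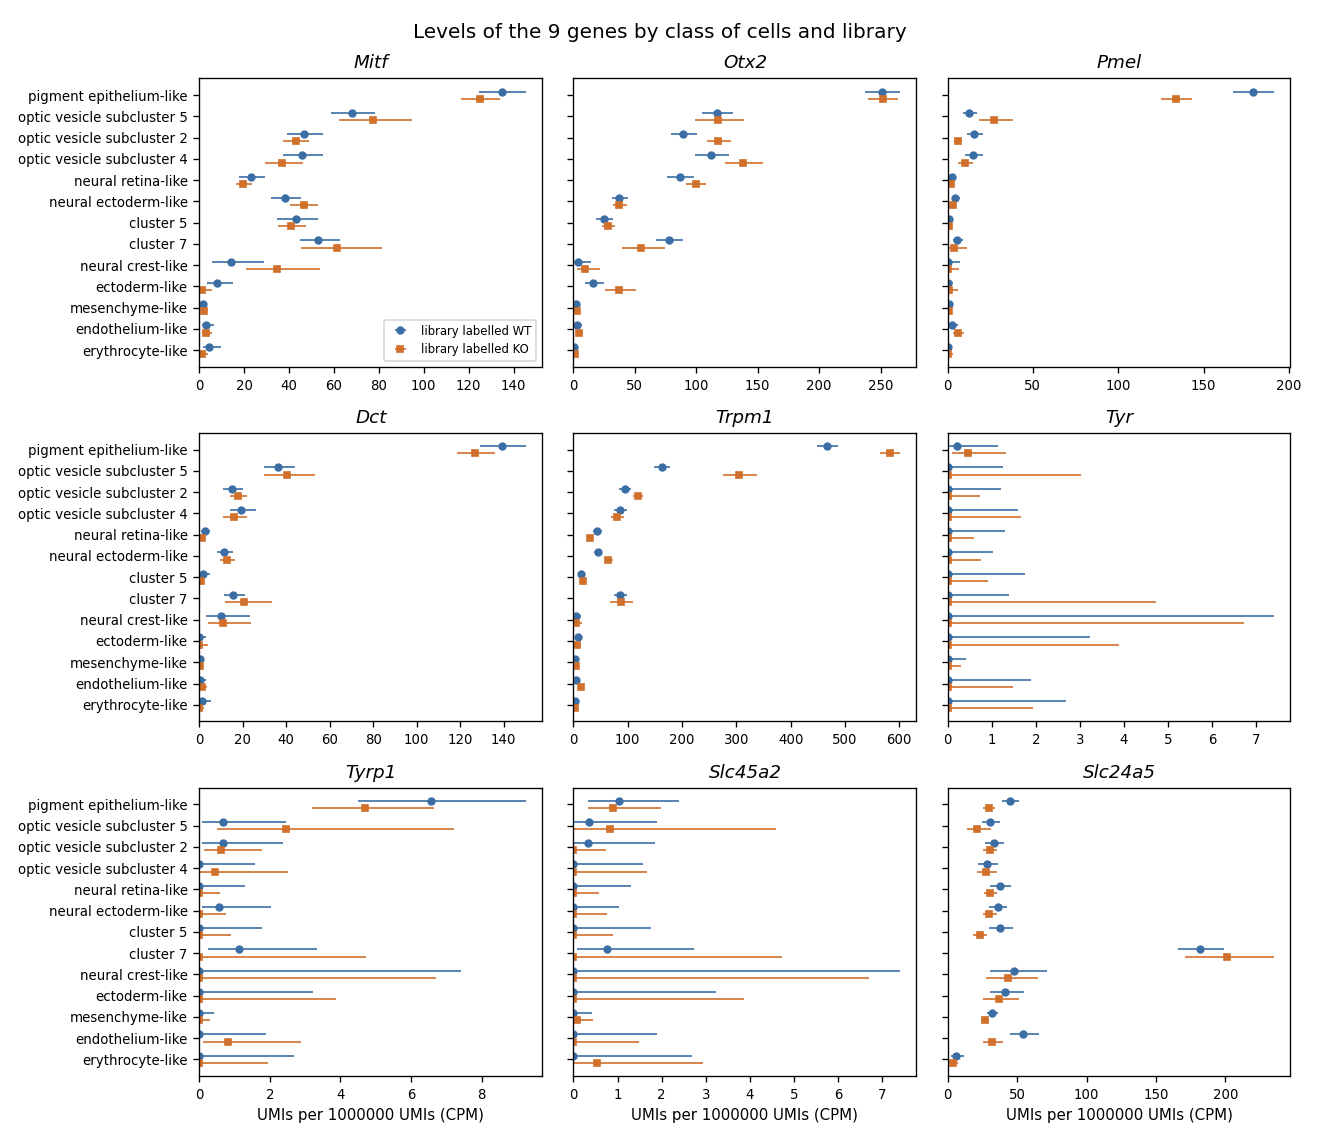
Level of each of the 9 genes (CPM, linear axes that start at 0 and differ between panels) in 13 classes of cells, with blue circles for the WT-labelled library, orange squares for the KO-labelled library and bars for exact 95% Poisson intervals. All genes but *Slc24a5* have their highest level in pigment epithelium-like cells, while *Slc24a5* is highest in cluster 7 among the classes drawn, at 182 and 201 CPM. For *Tyr* and *Slc45a2* the intervals overlap those of the other classes.

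Shares of cells were compared after each cell was thinned to 10000 UMIs, since deeper cells show more genes. In the optic vesicle-like cells of the WT-labelled library, *Otx2* was detected in 69.0% [64.5, 73.3] of 452 cells, *Trpm1* in 63.9% [59.3, 68.4], *Mitf* in 46.0% [41.4, 50.7], *Slc24a5* in 33.6% [29.3, 38.2], *Dct* in 30.8% [26.5, 35.2] and *Pmel* in 26.5% [22.5, 30.9]. *Tyrp1* was in 1.99% [0.914, 3.75], *Slc45a2* in 0.885% [0.242, 2.25] and *Tyr* in none of them, which allows up to 0.664%. The library labelled KO gave the same order, *Slc24a5* at 22.0% [19.1, 25.2] apart, over its 722 cells for *Otx2*, 69.1% [65.6, 72.5], *Trpm1*, 57.1% [53.4, 60.7], *Mitf*, 37.1% [33.6, 40.8], *Dct*, 22.7% [19.7, 26.0], *Pmel*, 18.7% [15.9, 21.7], and *Tyrp1*, 1.94% [1.06, 3.23], with *Tyr* and *Slc45a2* level at 0.139% [0.00351, 0.769]. The neighbours *Dct* and *Pmel* do not differ beyond their intervals in either library, and in the WT-labelled library the same holds for *Otx2* and *Trpm1* and for *Slc45a2* with each of its neighbours. When a cell counted only with 2 UMIs or more, *Trpm1* came before *Otx2* and *Pmel* before *Dct* in the WT-labelled library. A single stage was sampled, so this is an order of detection at one time, which depends on the level of each gene, and times of onset were not measured. Without thinning, the shares were 86.9%, 79.2%, 75.2%, 49.3%, 37.5%, 6.42%, 1.499% and 0.214% in the WT-labelled library for *Otx2*, *Trpm1*, *Mitf*, *Dct*, *Pmel*, *Tyrp1*, *Slc45a2* and *Tyr*.

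Classes outside the neural and neural crest-like cells serve as the background for reading these shares, though they need not be free of these genes. In mesenchyme-like, endothelium-like and erythrocyte-like cells together, thinned in the same way, *Otx2* was in 1.55% and 2.05% of cells, *Mitf* in 1.74% and 1.59%, *Trpm1* in 2.13% and 3.76%, *Pmel* in 0.969% and 0.456% and *Dct* in 0.388% and 0.228%. Their median depth was 20459 and 16397 UMIs before thinning, against 26438.5 and 24950.5 in pigment epithelium-like cells. The share of *Otx2*, *Trpm1*, *Mitf*, *Dct* and *Pmel* lay above this background over all optic vesicle-like cells, while the *Dct* share of neural retina-like cells, 2.08% [0.253, 7.32] and 0.803% [0.0974, 2.87], did not stand clear of it.

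**Figure D2:**
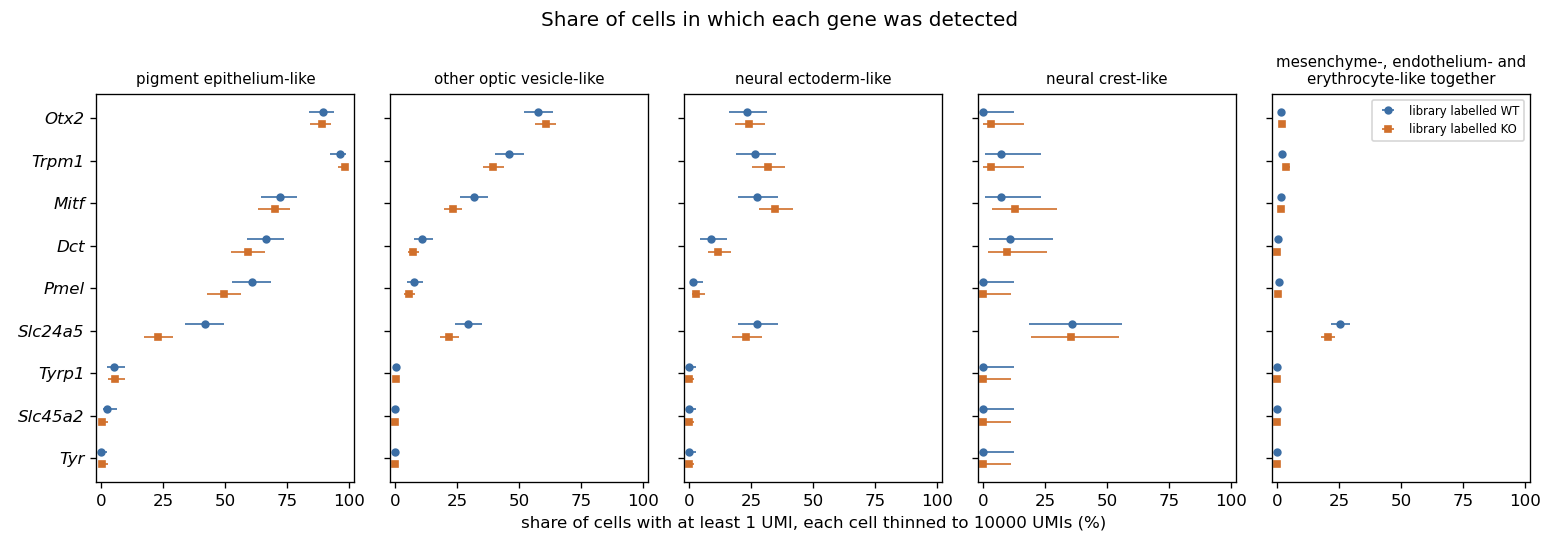
Share of cells with at least 1 UMI of each gene (percent, each cell thinned to 10000 UMIs) in 5 sets of cells, with circles for the WT-labelled library, squares for the KO-labelled library and bars for exact 95% binomial intervals. *Trpm1*, *Otx2*, *Mitf*, *Dct* and *Pmel* lie between 49.5% and 98.1% in pigment epithelium-like cells and between 0.228% and 3.76% in the mesenchyme-like, endothelium-like and erythrocyte-like cells, while *Slc24a5* lies between 20.5% and 41.6% in all 5 sets.

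Co-detection was read over *Otx2*, *Mitf*, *Trpm1*, *Pmel* and *Dct*, leaving out the rare members and *Slc24a5*, which was detected about as widely but did not follow the other members. Of 93 optic vesicle-like cells of the WT-labelled library with just 1 of the 5, 52 held *Otx2*, 22 *Trpm1*, 15 *Mitf*, 2 *Pmel* and 2 *Dct*. Among the 198 such cells of the KO-labelled library, 145 held *Otx2*, 34 *Trpm1*, 17 *Mitf*, 1 *Pmel* and 1 *Dct*. *Pmel* and *Dct* alone were thus rare, as their lower shares already imply in part. Cells with *Pmel* also held *Trpm1* in 92.5% [86.2, 96.5] of 120 cells and 97.0% [92.6, 99.2] of 135 cells, where cells without *Pmel* held *Trpm1* in 53.6% and 47.9%. Cells with *Dct* held *Mitf* in 64.0% [55.5, 72.0] of 139 cells and 64.0% [56.2, 71.4] of 164 cells, against 38.0% and 29.2% of the cells without *Dct*. *Pmel* and *Dct* were seen together in 64.2% [54.9, 72.7] and 61.5% [52.7, 69.7] of the cells with *Pmel*, against 18.7% and 13.8% of the cells without it. *Mitf* was seen in 73.3% [64.5, 81.0] and 65.9% [57.3, 73.9] of the *Pmel* cells, so at this depth a cell with *Pmel* did not always show *Mitf*. *Tyrp1* was seen in 9 and 14 cells, all of which also held *Trpm1*, and *Slc24a5* was in 33.3% and 28.1% of *Pmel* cells against 33.7% and 20.6% of the cells without *Pmel*. All these shares pool the optic vesicle-like classes, and each of the 5 genes was highest in pigment epithelium-like cells. The contrasts therefore mix differences between classes with co-detection inside a class, and they do not show the latter.

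All 5 genes together were seen in 52 of 161 pigment epithelium-like cells of the WT-labelled library, 32.3% [25.2, 40.1], and in 45 of 216 of the KO-labelled library, 20.8% [15.6, 26.9]. Within subcluster 1 the shares were 33.3% [25.7, 41.7] of 144 cells and 32.5% [22.7, 43.7] of 83 cells. Subcluster 3 had 23.5% [6.81, 49.9] of 17 cells and 13.5% [8.22, 20.5] of 133 cells. The 291 and 506 other optic vesicle-like cells held all 5 genes in 0 and 3 cells, where a count of 0 allows up to 1.03%.

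**Figure D3:**
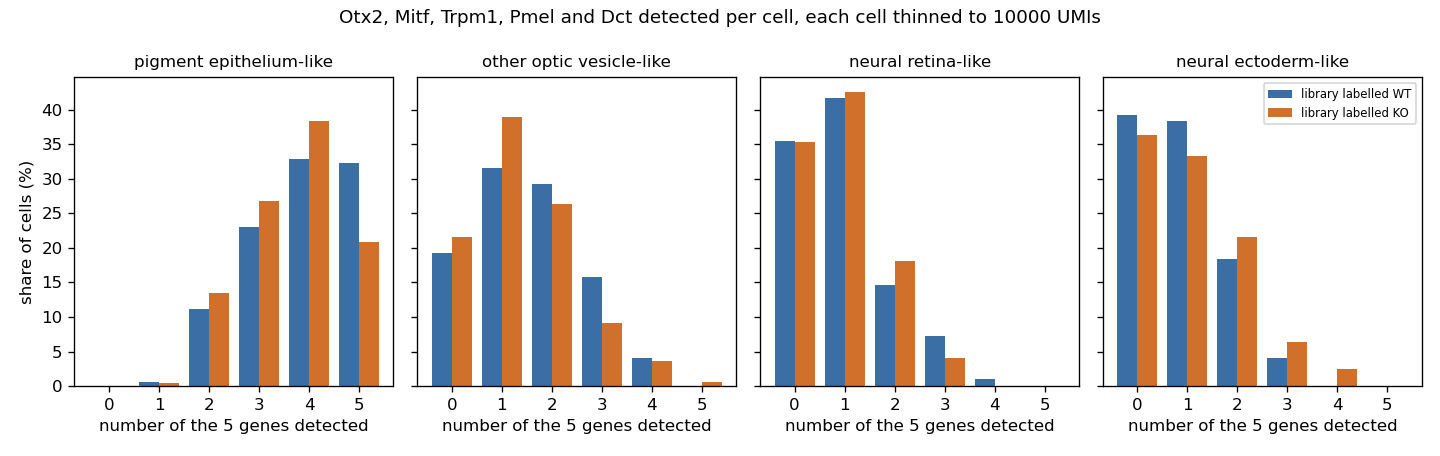
Distribution of the number of the 5 genes *Otx2*, *Mitf*, *Trpm1*, *Pmel* and *Dct* detected per cell (bars, percent of the cells of a class in one library, each cell thinned to 10000 UMIs), with blue for the WT-labelled library and orange for the KO-labelled library. Pigment epithelium-like cells mostly held 3 to 5 of the genes and the other classes mostly 0 to 2.

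Regional genes of the optic vesicle were set beside the members in the same thinned cells. Cells with *Rax*, which marks the whole vesicle, had *Pmel* at a share of 21.2% [16.9, 26.1] and 11.8% [9.17, 14.8], against 40.2% [31.6, 49.2] and 38.5% [31.5, 45.9] of cells without *Rax*. *Dct* ran as *Pmel* did by *Rax*, at 28.0% [23.2, 33.2] and 16.3% [13.2, 19.7] with it and 37.8% [29.35, 46.8] and 41.2% [34.05, 48.6] without. The direction was the other way for *Pax6*, with *Dct* in 32.1% [27.6, 36.9] and 24.4% [21.1, 28.0] of cells with it and 15.8% [6.02, 31.3] and 10.9% [5.34, 19.1] of cells without. In the WT-labelled library, which had 38 cells without *Pax6*, the *Dct* intervals overlap for both *Rax* and *Pax6*. *Rax* and *Pax6* took part in the clustering, but these shares were taken over all optic vesicle-like cells and not by subcluster.

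Pigment epithelium-like cells were set against the other optic vesicle-like cells of the same library over all genes with at least 20 UMIs. *Tyr* and *Slc45a2* stayed under 20 UMIs. The 7 other members were all higher, as were 6058 of 11585 genes in the WT-labelled library and 6306 of 12003 in the KO-labelled library. Of the 7, 6 were 2-fold or more higher in each library, where 3.74% and 4.07% of all genes were so. None of the 7 was 2-fold lower, as 3.4% and 3.06% of all genes were. The median log2 ratio of the 7 was 2.26 and 2.68, against 0.02 over all genes in both. The limit of 20 UMIs is a sum over both sides, so a rare gene can pass it only through the side where it is high. *Tyrp1* did so, with 4 UMIs in the other cells against 32 and with 7 against 31, and its direction is no support. It is still counted among the 7, among the 6 and in the medians. The same can hold for rare genes of the lists below. Ratios ran from 18.2-fold [6.47, 71.0] for *Tyrp1*, 15.8-fold [13.1, 19.2] for *Pmel* and 7.64-fold [6.52, 8.98] for *Dct* to 4.79-fold [4.46, 5.16] for *Trpm1*, 2.94-fold [2.61, 3.30] for *Mitf* and 2.50-fold [2.30, 2.71] for *Otx2* in the WT-labelled library. The library labelled KO gave 9.81-fold [4.24, 26.4], 20.7-fold [16.7, 25.8], 10.3-fold [8.78, 12.2], 6.43-fold [6.04, 6.85], 3.58-fold [3.21, 4.01] and 2.23-fold [2.08, 2.39] in the same order. *Slc24a5* gave 1.37 [1.16, 1.63] and 1.004 [0.843, 1.19], and the latter does not stand clear of 1. These are descriptions, since the classes were made from the same cells.

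Other genes of the pathway were counted from lists. Of the 3 MiT family genes, which encode the close relatives of MITF, *Tfec* was 4.56-fold [2.74, 7.78] and 7.15-fold [4.56, 11.6] higher in pigment epithelium-like than in other optic vesicle-like cells, and no other gene of the list with 20 UMIs was 2-fold apart. Of 30 melanosome and pigment cell genes, 24 and 23 had at least 20 UMIs, and 4 and 3 of those were 2-fold or more higher and none 2-fold lower, beside the 3.74% and 4.07% of all genes that were higher and the 3.4% and 3.06% that were lower. *Rab38*, a GTPase that delivers enzymes to melanosomes, stood at 43.4 and 47.2 CPM, 4.93-fold [3.86, 6.33] and 7.76-fold [6.12, 9.94] the level in the other optic vesicle-like cells. *Rab27a*, which links melanosomes to the motor myosin, had ratios of 3.799 [1.56, 9.85] and 14.9 [5.21, 58.8] on 15 and 27 UMIs. *Oca2* and *Rab27b* passed the fold in the WT-labelled library, at 11.4 [3.82, 45.9] and 2.28 [1.40, 3.72], and *Slc7a11* in the KO-labelled library, at 4.01 [2.11, 7.91]. The median of the list was near that of all genes, 0.06 and 0.04 on the log2 scale.

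Of 11 regulators of pigment epithelium or of *Mitf*, 1 and 2 were 2-fold or more higher and 1 and 1 lower in pigment epithelium-like cells. Of all genes with at least 20 UMIs, 3.74% and 4.07% were 2-fold or more higher and 3.4% and 3.06% lower. *Wnt2b*, also one of the markers that named the class, was 9.69-fold [3.16, 39.6] and 9.41-fold [3.07, 38.4] higher on 17 UMIs in each library, and *Otx1*, a relative of *Otx2*, was 2.23-fold [2.01, 2.49] higher in the KO-labelled library. The lower regulator was *Pax2*, a factor of the optic stalk, at 0.364 [0.307, 0.429] and 0.402 [0.352, 0.457] of its level in the other cells. Among 11 melanoblast regulators and receptors, 6 and 8 had at least 20 UMIs. Of those, 1 was higher and 1 lower in the WT-labelled library and 4 were lower in the KO-labelled library, beside the same shares of all genes. *Kit*, the receptor that melanoblasts need, was at 0.358 [0.171, 0.681] and 0.468 [0.282, 0.747]. *Sox10* was 3.04-fold [1.18, 8.17] higher on 12 UMIs in the WT-labelled library and was at 0.246 [0.0277, 1.03] on 2 UMIs in the KO-labelled library, where *Pax3* was at 0.492 [0.121, 1.49] and *Ednrb* at 0.369 [0.0696, 1.26] on 4 and 3 UMIs.

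Neural crest-like cells, 30 and 31 in number, are the lineage from which melanocytes come, and *Sox10* was found in 29 and 31 of them. *Dct* was detected in 5 of 30 and 6 of 31 of them with 1 UMI each, or 10.0 CPM [3.26, 23.4] and 10.9 [4.004, 23.8]. After thinning its share was 10.7% [2.27, 28.2] and 9.68% [2.04, 25.8], above the 0.388% and 0.228% of the background classes. *Mitf* had 7 UMIs in 2 cells and 19 UMIs in 6 cells, 14.0 CPM [5.65, 28.9] and 34.6 [20.8, 54.0], a ratio between the libraries of 2.46 [0.990, 6.93] that does not stand clear of 1. Of the *Dct* cells, 1 of 5 and 4 of 6 also held *Mitf*, and 4 of 5 and 6 of 6 held *Sox10*. *Pmel*, *Tyr*, *Tyrp1* and *Slc45a2* were not detected, which allows up to 6.02 and 5.46 CPM. *Trpm1* had 2 and 3 UMIs and *Otx2* 2 and 5. In thinned crest cells *Mitf* was in 7.14% [0.877, 23.5] and 12.9% [3.63, 29.8] and *Trpm1* in 7.14% [0.877, 23.5] and 3.23% [0.0816, 16.7], so that no order among *Dct*, *Mitf* and *Trpm1* could be read from so few cells, and a count of 0 among them allows a *Pmel* share of up to 10.7% and 9.68%.

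*Slc24a5*, the sodium/calcium exchanger of the melanosome, did not follow the other members. Its level was 44.9 CPM [39.1, 51.2] and 29.5 [25.5, 33.9] in pigment epithelium-like cells, 37.6 and 30.6 in neural retina-like cells, 32.2 and 26.9 in mesenchyme-like cells and 48.2 and 43.6 in neural crest-like cells. The highest levels stood in cluster 7, led by *Amt* and *Rpgrip1*, at 182 and 201, and in the shallow cluster 12, led by *Ric1* and *Notch2*, at 197 and 226. Likeness to *Slc24a5* was taken as Pearson's r of log2(CPM + 1) across 17 classes in 2 libraries, 34 points that share depth and library. Out of 12183 genes the most alike was *Myef2*, with r of 0.972. *Klhl9* and *Cbx3* came next, at 0.948 and 0.918, and *Cbx3* was itself among the leading genes of cluster 7. With *Mitf*, *Otx2*, *Pmel*, *Dct* and *Trpm1*, r lay between -0.068 and 0.116. In GRCm38 *Slc24a5* lies at chr2:125068124-125088677 on the plus strand, and its exons overlap exons of *Myef2* on the minus strand and of no other annotated gene. *Myef2* was counted at 217 and 232 CPM in cluster 7, and at 74.4 and 56.7 in pigment epithelium-like cells. *Slc24a5* UMIs amounted to 33.3% to 87.7% of the *Myef2* UMIs in the 34 points. Whether the counting used strand is not given in the sources used here, and the part of *Myef2* reads in the *Slc24a5* counts was not tested.

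**Figure D4:**
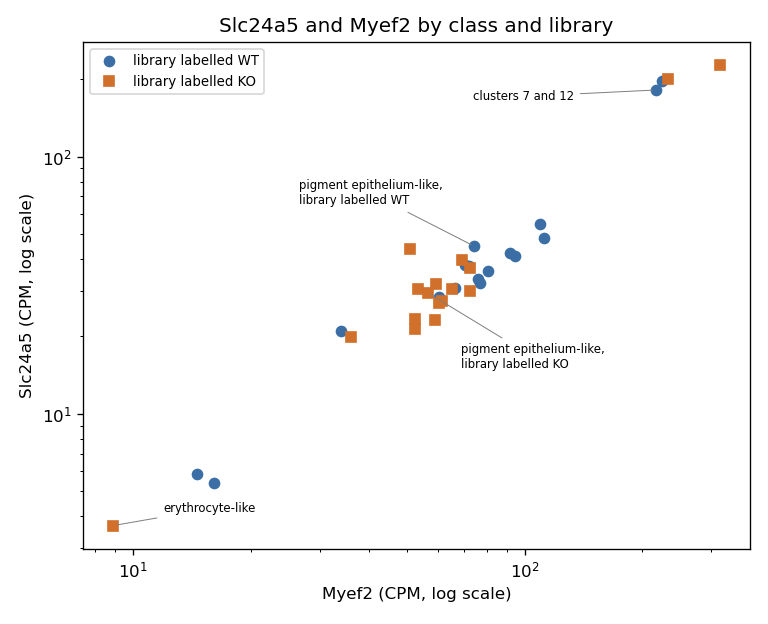
Level of *Slc24a5* against that of *Myef2* (CPM, both axes logarithmic) over 17 classes of cells in each library, with circles for the WT-labelled library and squares for the KO-labelled library. The points rise together from erythrocyte-like cells, at 3.68 CPM of *Slc24a5* and 8.93 of *Myef2* in the KO-labelled library, to clusters 7 and 12, and the pigment epithelium-like cells lie in the middle.

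The same measure over the 34 points, given as a description, placed other genes beside the members. *Trpm1* was the third most like *Pmel*, r = 0.891, and the first for *Dct*, r = 0.886, and *Mitf* was the third for *Dct*, r = 0.835. The genes most like *Mitf* were *Fam171b*, *Cplx3* and *Rgs13*, r = 0.871 to 0.856, and those most like *Otx2* were *Clec18a*, *Abca4* and *Mab21l2*, r = 0.954 to 0.946. *Pmel* had *Slc11a1* and *Slc38a8* first, r = 0.909 and 0.898, and *Trpm1* had *Mab21l2*, *Cplx3* and *Abca4*, r = 0.935 to 0.904. *Abca4* and *Rxrg*, the second for *Dct* at r = 0.843, are better known from photoreceptors. In GRCm38 the other genes span chr6:97807052-98021349 (*Mitf*, plus strand), chr14:48657677-48673819 (*Otx2*, minus), chr10:128704195-128720238 (*Pmel*, plus), chr14:118012790-118052244 (*Dct*, minus), chr7:64153835-64269775 (*Trpm1*, plus), chr7:87424771-87493512 (*Tyr*, minus), chr4:80834123-80851719 (*Tyrp1*, plus) and chr15:11000721-11029233 (*Slc45a2*, plus). Exons of *Pmel* overlap those of *Cdk2* and *Dgka* on the other strand, exons of *Otx2* those of *Otx2os1* and exons of *Trpm1* those of *Gm44722*, also on the other strand, where reads can be told apart only if the counting used strand. Exons of *Otx2* overlap those of *Gm49154* on the same strand, and no overlap was annotated for *Mitf*, *Dct*, *Tyr*, *Tyrp1* or *Slc45a2*.

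Between the libraries, no member with at least 20 UMIs was 2-fold apart in optic vesicle-like cells, where 0.793% of 12744 genes were 2-fold or more higher and 0.589% lower in the KO-labelled library. Of these 7 members, 2 were higher in the KO-labelled library, *Otx2* and *Trpm1*, as were 52.6% of all genes. *Otx2* gave a ratio of 1.07 [1.01, 1.13] and *Trpm1* of 1.16 [1.11, 1.21]. Lower levels were counted for *Pmel*, 62.5 against 46.2 CPM or a ratio of 0.739 [0.676, 0.808], *Slc24a5*, 0.808 [0.720, 0.906], *Mitf*, 0.862 [0.797, 0.934], and *Dct*, 0.869 [0.794, 0.953]. *Tyrp1*, at 0.795 [0.491, 1.29] on 36 and 38 UMIs, could not be told from 1. The median log2 ratio of the 7 was -0.21, against 0.01 over all genes. Subcluster makeup moved with these values: with each of the 6 subclusters given the same weight, a choice made after seeing the data, the log2 ratios of *Mitf*, *Pmel* and *Dct* turned from -0.21, -0.44 and -0.20 to 0.0030, 0.17 and 0.13, and 6 of the 7 were higher. *Mitf* is counted among the 6 at 0.0030, which is close to no difference. No share over all genes is given at this weighting, so the count is not read as a result. Outside the pigment epithelium-like class the ratios were 0.573 [0.434, 0.754] for *Pmel*, 0.674 [0.548, 0.828] for *Dct*, 0.760 [0.671, 0.861] for *Mitf*, 1.13 [1.04, 1.22] for *Otx2* and 0.931 [0.858, 1.01] for *Trpm1*, in a set of cells of which neural retina-like cells were 105 of 301 and 253 of 512.

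Within the pigment epithelium-like cells the ratio was 0.749 [0.681, 0.823] for *Pmel*, 0.657 [0.539, 0.801] for *Slc24a5*, 0.911 [0.822, 1.01] for *Dct*, 0.928 [0.837, 1.03] for *Mitf*, 0.715 [0.422, 1.21] for *Tyrp1*, 1.003 [0.931, 1.08] for *Otx2* and 1.25 [1.19, 1.32] for *Trpm1*. Of these 7 members 2 were higher in the KO-labelled library, as were 52.0% of 11100 genes, and none was 2-fold apart, where 1.32% of all genes were 2-fold higher and 0.766% lower. The lower *Pmel* level was not seen inside either subcluster. In subcluster 1 its ratio was 1.10 [0.991, 1.23], from 195 to 215 CPM, and in subcluster 3 it was 1.35 [0.927, 2.02], from 54.9 to 74.0 CPM. *Dct* likewise had ratios of 1.14 [1.01, 1.28] and 1.07 [0.798, 1.46] there. *Trpm1* was higher in the KO-labelled library in subcluster 1, 1.39 [1.31, 1.49], and at 1.11 [0.974, 1.26] in subcluster 3, and *Slc24a5* was at 0.667 [0.512, 0.863] and 0.771 [0.480, 1.30]. Over all kept cells *Slc24a5* gave 0.655 [0.613, 0.700], and *Myef2* moved with it, at 84.6 and 61.2 CPM. In clusters 7 and 12, where *Slc24a5* was highest, its ratios were 1.11 [0.919, 1.33] and 1.15 [0.707, 1.79]. Those clusters held 8.69% and 4.17% of kept cells in the WT-labelled library and 2.08% and 0.541% in the KO-labelled library. Class makeup therefore enters the ratio over all kept cells, and its part was not tested.

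**Figure D5:**
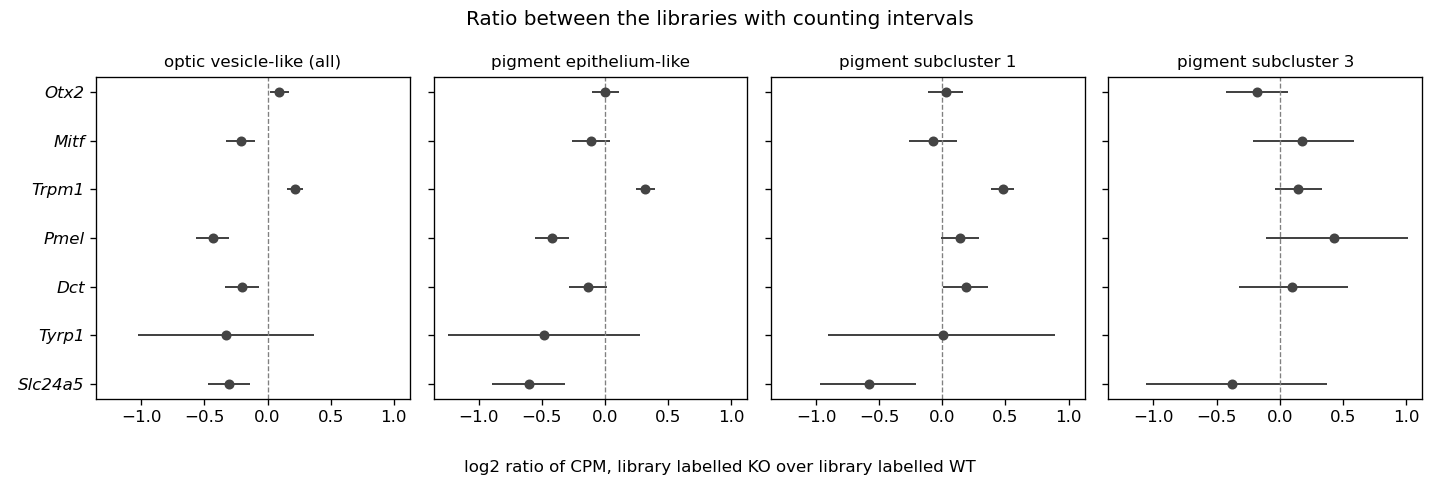
Log2 ratio of CPM of the KO-labelled library over the WT-labelled library for members with at least 20 UMIs (points, with bars for exact 95% counting intervals and a dashed line at 0) in all optic vesicle-like cells, in pigment epithelium-like cells and in their subclusters 1 and 3. *Pmel* lies at -0.44 and -0.42 in the panels of the joined classes and at 0.14 and 0.43 in the subclusters, while *Trpm1* lies above 0 in all 4 panels, with an interval that reaches below 0 in subcluster 3.

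Few list genes were 2-fold apart between the libraries. In optic vesicle-like cells, 0 of 27 melanosome and pigment cell genes with at least 20 UMIs were 2-fold higher and 2 were lower in the KO-labelled library, *Oca2* at 0.471 [0.230, 0.935] on 24 and 15 UMIs and *Mreg* at 0.424 [0.165, 1.02] on 16 and 9 UMIs, beside 0.793% and 0.589% of all genes. None of 3 MiT family genes, 11 regulators and 9 melanoblast genes passed the fold in either direction. Pigment epithelium-like cells gave *Oca2*, 0.443 [0.198, 0.952], and *Rab27b*, 0.451 [0.253, 0.788], as lower and *Slc7a11*, a cystine transporter, 2.14 [1.01, 4.93], as higher among 23 genes, beside 0.766% of all genes lower and 1.32% higher. None of 2 MiT family genes, 11 regulators and 4 melanoblast genes passed the fold there. Differences of this size in 1 embryo per genotype have no replicate check.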

How the data were processed

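The deposited files were 10x matrices of UMI counts per gene and cell barcode, 1 per library, made by the authors with Cell Ranger on mm10/GRCm38, and their aggregation step can subsample reads between libraries. The counts were used as deposited. A barcode was used when it had 1500 to 8000 genes and a mitochondrial share of UMIs of 5% or less, a limit that the study's methods print as a smaller percentage and that was read as a fraction. This left out 54 and 53 barcodes for the mitochondrial share and 11 and 1 for genes, and left 4084 cells, the number that the study's methods give. Scrublet in scanpy 1.11.5 called 4 and 7 doublets, under 0.5% of barcodes. They were not removed, and 4 and 6 of them passed the filters.

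Cells were clustered in Seurat 5.3.0 (R 4.3.3) on genes found in at least 3 cells, with cell cycle scores regressed out, 40 components and resolution 0.6, and the optic vesicle-like cells again with 20 components and resolution 0.6. The 9 genes and the lists of MiT family and melanosome genes were left out of the variable genes. A cluster was named when at least 3 markers were 2-fold higher in it and markers of another class did not outnumber its own among its 10 leading genes. Clusters under 30 cells were left out, clusters 7 and 12 were kept apart after seeing that no own marker led them, which also held for the named clusters 2 and 9, and subclusters took only the names neural retina-like and pigment epithelium-like. Level is UMIs of a gene over all UMIs of the class (CPM). For shares each cell was thinned to 10000 UMIs and shallower cells were left out. Intervals were exact and at the 95% level, in scipy 1.17.1 (Python 3.11.15), and cover counting error only. No test was made, since each genotype has 1 library, and no p-value across cells or genes is given. The calculation of intervals and ratios was run on simulated sums drawn with Poisson spread, which the intervals assume. That run cannot show how the intervals hold where counts vary more between cells.

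All 9 genes are described. Of the lists, genes at least 2-fold apart with 20 UMIs or more over both sides are named, and for each member with at least 100 UMIs the 3 genes with the highest Pearson correlation of log2(CPM + 1). The members and lists were chosen with earlier results of these data known. Alternatives changed the mitochondrial limit, resolution, components, cell cycle regression, genes left out, doublets, thinning, UMIs needed per cell and the CPM total. Columns of other samples in the files numbered 0. Promoter windows came from RefSeq and gene positions from the GENCODE annotation of GRCm38. 1 regulator of the lists is not reported here, and counts are over the other 11.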

Additional observations from a re-analysis of the deposited data

Results flagged for a closer look

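The ratio of the KO-labelled over the WT-labelled library was looked at again for the members whose counting intervals lay on opposite sides of 1 in different classes. These differences between classes were not tested, and each class holds cells of 1 embryo per genotype. *Otx2* had a ratio of 2.33 in ectoderm-like cells, 1.32 in optic vesicle subcluster 2 and 1.23 in subcluster 4, but 0.709 in cluster 7. *Pmel* was at 2.15 in subcluster 5, where it was counted on 37 and 33 UMIs, and at 0.378 in subcluster 2 and 0.749 in pigment epithelium-like cells. *Trpm1* was higher in 6 sets of cells, at 1.55 in cluster 13, 2.50 in endothelium-like cells, 1.43 in neural ectoderm-like and 1.25 in pigment epithelium-like cells, 1.26 in subcluster 2 and 1.88 in subcluster 5, and lower in neural retina-like cells, at 0.700. In endothelium-like cells 1 cell of the KO-labelled library held 18 of its 35 *Trpm1* UMIs and all 15 of its *Pmel* UMIs, and without that cell the *Trpm1* ratio was 1.23 [0.544, 2.91], which does not stand clear of 1.

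Barcodes that the filters left out also held pigment genes. The 65 such barcodes of the WT-labelled library held 56 UMIs of *Pmel* and 69 of *Dct*, and the 54 of the KO-labelled library held 11 and 10. In CPM this was 31.9 and 39.3, against 15.3 and 13.9. All kept cells together had 26.0 and 24.6 CPM of *Pmel* and *Dct* in the WT-labelled library and 20.5 and 22.3 in the KO-labelled library. The left-out UMIs of *Pmel* and *Dct* lay in 9 and 10 barcodes of the WT-labelled library and in 1 and 2 barcodes of the KO-labelled library.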

How the results depend on the processing

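In the pigment epithelium-like cells 2 of 7 members were higher in the KO-labelled library with a median log2 ratio of -0.13, and this count depended on which cells formed the class. It was 4 (median 0.021) without a mitochondrial limit, 5 (0.12) at resolution 0.3, 5 (0.10) without cell cycle regression and 1 with 20 components. Of the choices made after seeing the data, subcluster 1 alone gave 5 (0.025), subcluster 3 alone 4 (0.12), equal weight of both 4 (0.041) and the barcodes found in only 1 library 1. *Pmel* turned from -0.42 to 0.21 without cell cycle regression, 0.14 in subcluster 1, 0.43 in subcluster 3 and 0.21 at equal weight. Over all optic vesicle-like cells equal weight of the 6 subclusters gave 6 of 7 higher (0.058) and turned *Mitf* to 0.0030, *Pmel* to 0.17 and *Dct* to 0.13. No share over all genes is given beside the counts under these alternatives, which describe the members alone. The turns are those of *Pmel* in pigment epithelium-like cells and of *Mitf*, *Pmel* and *Dct* at equal weight. The cause of these turns was not tested. The pigment epithelium-like share of the optic vesicle-like cells moved from 30.6% to 10.3% [8.18, 12.7] in the KO-labelled library and from 35.5% to 29.0% in the WT-labelled library without cell cycle regression. Over every setting run, *Trpm1* stayed higher in the KO-labelled library, with log2 ratios of 0.13 to 0.36 in optic vesicle-like and 0.15 to 0.63 in pigment epithelium-like cells, and *Slc24a5* lower, at -0.68 to -0.23 and -0.89 to -0.31. Depth limits *Tyr*, *Slc45a2* and *Tyrp1*, for which no difference between the libraries was detectable. No paired analysis was possible because each genotype has 1 library.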
